A study of Bos taurus with 6 samples.

Results

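MAC-T is an established line of bovine mammary epithelial cells, and the count tables of its RNA hold 29154 rows. Of these, 27607 are genes with an Ensembl identifier, and 1547 are loci whose identifier carries the authors' prefix for loci outside the annotation in place of the Ensembl prefix ENSBTAG. These 1547 unannotated loci, 5.31% of all rows, were taken by that prefix alone, with no measured value used. The number after the prefix runs from 1 to 17251, and each locus is called here by this number. Transfection was with the miR-29c inhibitor (100 nM) in the treated group and with the negative control, the NC inhibitor (100 nM), in the other, and cells were collected 48 h later. The line was immortalized with SV40 large T antigen, which both groups share, and the labels name no other difference between the groups than the inhibitor. RNA-seq libraries from mRNA captured with oligo(dT) were compared for replicates 1 and 2 of each group. They are called control 1 and 2 (NC inhibitor) and inhibitor 1 and 2 (miR-29c inhibitor), and replicate 3 of both groups was not analysed here. The growth protocol in the labels describes transfected wells as the replicates, so that any spread between replicates is that between wells of a single cell line. The loci are described by their counts alone, since positions, lengths and sequences were not analysed here, and as the gene identifiers came without symbols, epithelial marker genes were not checked.

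A locus outside the annotation is a stretch of the genome where sequenced RNA was found although the gene annotation lists no gene there. Such loci are known to include long non-coding RNAs, ends and exons missing from the models of known genes, pseudogenes, transcribed repeats and pieces of unspliced RNA. In a livestock genome, whose annotation is less complete than that of human or mouse, they can also be whole genes. Which rows count as unannotated depends on the annotation release. The paper names genome UMD3.1 with an archived Ensembl site, and whether the identifiers in the count tables belong to that release was not checked here. MicroRNAs of the miR-29 family repress mRNAs with matching sites in the 3' untranslated region, collagen and DNA methyltransferase mRNAs among them, and an inhibitor is an antisense oligonucleotide that binds the microRNA. Whether an unannotated locus holds such a site was not analysed here.

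Counts were found on nearly all unannotated loci. At least 1 count over the 4 libraries was found on 1497 of 1547 loci, or 96.8%, and on 18803 of 27607 Ensembl genes, or 68.1%. In single libraries 1411 and 1430 loci were detected in control 1 and 2, and 1412 and 1423 loci in inhibitor 1 and 2. These are between 91.2% and 92.4% of the loci, against 60.5% to 61.3% of the Ensembl genes. Detection was shared between the libraries, with 1329 loci, or 85.9%, detected in all 4 and 43 loci in a single library. No count in any library was found on 50 loci, 3.23% of them, whereas 31.9% of the Ensembl genes had none. Whether the loci were assembled from these same libraries, which would favour their detection, was not stated. The mean number detected was 1420 ± 13.4 in the control group and 1418 ± 7.78 in the inhibitor group (SD, n = 2 libraries each). The exact two-sided permutation test gave p = 1 for this difference, where 2 libraries against 2 cannot give less than 0.333.

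The unannotated loci took a small and similar share of the counts in every library. They took 1.926% of the 14479278 counts in control 1 (95% Wilson interval 1.919% to 1.933%) and 2.009% of the 16213226 counts in control 2 (2.003% to 2.016%). They took 1.932% of the 14562206 counts in inhibitor 1 (1.925% to 1.939%) and 1.912% of the 15668327 counts in inhibitor 2 (1.905% to 1.919%). Control 2 thus stood above the other 3 libraries by more than the counting error, which is all these intervals cover. The group means, 1.968% ± 0.0589 and 1.922% ± 0.0144 (SD, n = 2 libraries each), differed by less than both control libraries did, and the exact two-sided permutation p was 0.667. Without locus 10783, the most abundant, the shares were 1.725% and 1.772% in the control libraries and 1.707% and 1.697% in the inhibitor libraries. The groups no longer overlapped then, and the exact permutation p of 0.333 is the smallest that 2 libraries against 2 can give.

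**Figure D1:**
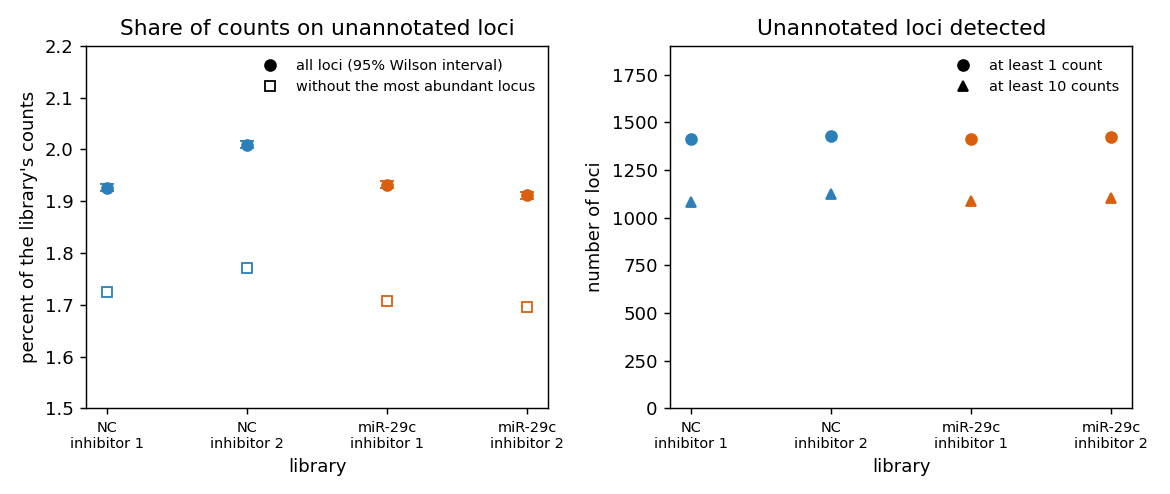
For each library on the x axis, the left panel plots the percent of counts on unannotated loci (filled points with 95% Wilson intervals, and open squares without the most abundant locus, on an axis from 1.5% to 2.2%), and the right panel the number of loci with at least 1 (circles) and at least 10 counts (triangles). Control 2 (NC inhibitor 2) has the highest share, 2.009%, while the numbers of detected loci lie between 1411 and 1430 in the 4 libraries.

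Few loci held most of these counts. Between 38 and 42 loci made up 50% of the counts on unannotated loci in each library, while 736 to 764 genes made up 50% of those on Ensembl genes. The 10 loci with the most counts took 29.6% to 31.6% of the counts on unannotated loci, while the 10 leading Ensembl genes took 6.98% to 7.28% of the counts on Ensembl genes. Locus 10783 alone held 11.5% of the counts on unannotated loci over the 4 libraries. It had 29664 and 39222 counts in control 1 and 2, and 33440 and 34343 counts in inhibitor 1 and 2. Locus 16606 followed with 3.85% of these counts, namely 9622 and 13350 counts in the control libraries and 11109 and 11537 counts in the inhibitor libraries. In both loci the control libraries held the lowest and the highest level, with those of the inhibitor group between them.

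The typical unannotated locus had fewer counts than the typical detected gene. CPM values, which are counts scaled to a common library size with edgeR's TMM factors, are not corrected for length, so that they show how many reads stand behind a locus and not how its expression compares with that of a gene. Among the rows with a count, the median of the mean CPM over the 4 libraries was 2.32 for the loci and 9.20 for the Ensembl genes. The lower quartile was 0.603 CPM for the loci and 0.297 CPM for the genes, and the upper quartile 7.89 CPM for the loci and 43.3 CPM for the genes. More than 10 CPM were reached by 312 loci, 20.8% of the 1497, and more than 100 CPM by 28 loci, or 1.87%. The corresponding shares of the Ensembl genes were 49.1% and 11.2%. The requirement of at least 10 counts in every library kept 992 of the 1547 loci, or 64.1%, and 12592 of the 27607 genes, or 45.6%.

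**Figure D2:**
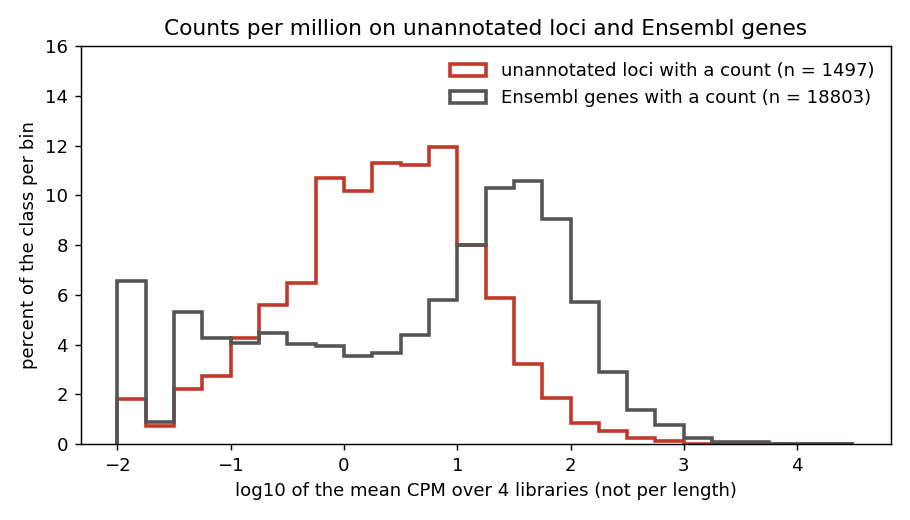
The histogram plots the log10 of the mean CPM over the 4 libraries (x axis, not per length, with values under 0.01 CPM set in the first bin) against the percent of each class per bin (y axis) for the 1497 unannotated loci and the 18803 Ensembl genes with a count. The loci form a single broad peak around their median of 2.32 CPM, and the genes a peak at higher values with a long tail of low ones.

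Replicates agreed less well over the unannotated loci than over the Ensembl genes on the log scale, here with the number of counts left out of account. The squared Pearson correlation of log2(CPM + 1), here on the library totals, was 0.981 between both control libraries and 0.980 between both inhibitor libraries across the 1547 loci. Between libraries of different groups it was 0.975 to 0.980. Across the Ensembl genes it was 0.997 within both groups and 0.996 to 0.997 between them. By ranks the order was the other way, with a squared Spearman correlation within groups of 0.959 and 0.958 over the loci and of 0.945 and 0.946 over the genes. Both are correlations across loci or genes and were not tested, since loci and genes are no replicates. Over loci with at least 10 counts in every library, the log2 ratio of replicate 2 to replicate 1 had an SD of 0.342 in the control group and 0.352 in the inhibitor group. For the Ensembl genes the SDs were 0.224 and 0.235.

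At a similar number of counts the spread of both classes was closer. Loci with a mean of 10 to 30 counts (189 loci and 869 genes) had an SD of 0.508 in the control group and 0.525 in the inhibitor group, against 0.493 and 0.556 for genes. At 30 to 100 counts (363 loci and 1687 genes) the values were 0.371 and 0.381 for loci and 0.351 and 0.368 for genes. At 100 to 300 counts (264 loci and 2618 genes) they were 0.228 and 0.235 for loci and 0.210 and 0.205 for genes. At 300 to 1000 counts (129 loci and 4155 genes) the loci had 0.157 and 0.160 and the genes 0.133 and 0.127. From 1000 counts on (47 loci and 3263 genes) the loci had 0.128 and 0.0991 and the genes 0.0894 and 0.0857. The loci thus had the larger SD in every bin but the lowest of the inhibitor group. The chi-square statistic of the counts of replicates, over rows with at least 20 counts in the pair, was 2.78 per degree of freedom for loci and 3.02 for genes in the control group. In the inhibitor group it was 2.03 and 2.61, so that replicates differed by more than counting error in both classes.

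**Figure D3:**
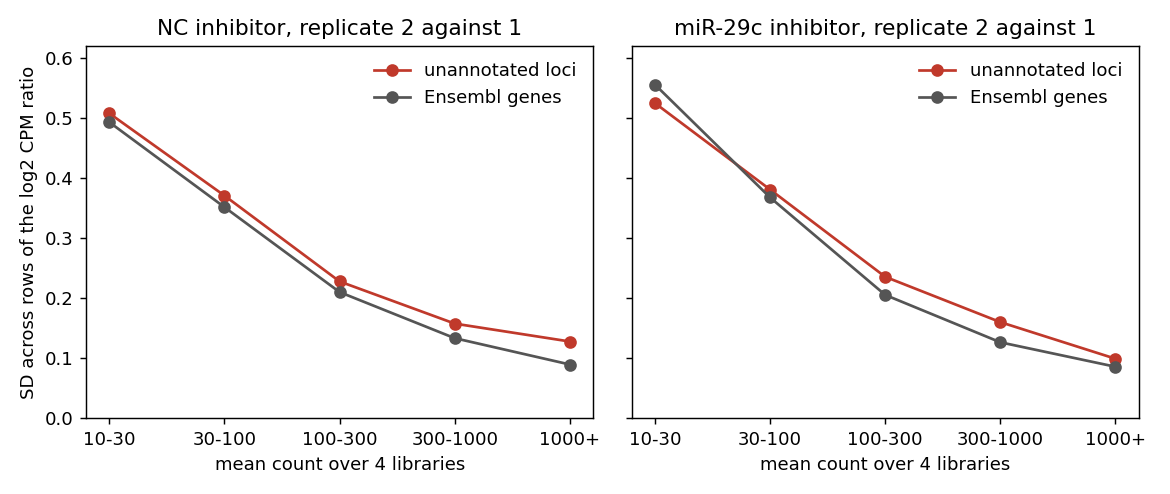
For the NC inhibitor (left) and the miR-29c inhibitor group (right), the lines plot the SD across rows of the log2 CPM ratio of replicate 2 to replicate 1 (y axis) in 5 bins of the mean count (x axis), for rows with at least 10 counts in every library. The spread falls with the count in both classes, from 0.508 to 0.128 for the loci in the NC inhibitor group. The line of the loci runs above that of the genes from 30 counts on.

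The miR-29c inhibitor was then compared with the NC inhibitor by edgeR's quasi-likelihood test over all 20300 rows with a count, and the rows of the loci were read from this fit. A positive log2 fold change is a higher level with the miR-29c inhibitor, and the Benjamini-Hochberg adjustment of p covered all rows tested. This fit gave rows of the same abundance a common spread. Its p values and standard errors thus do not reflect how far the replicates of a single locus lay apart. A small set of loci rose and a small set fell, at or under the rate of the table as a whole. Of the 1497 loci tested, 11 rose and 7 fell (adjusted p below 0.05), or 0.735% and 0.468%, against 0.901% higher and 0.562% lower of all rows. Among the 992 loci with at least 10 counts in every library, 7 were higher and 7 lower, 0.706% each. In the same fit, 1.29% of all 13584 rows with this number of counts were higher and 0.839% lower. Fitted on these 13584 rows alone, 6 of the 992 loci were higher and 1 lower, and 131 and 63 of all rows. With edgeR's filterByExpr, 6 of the 992 loci were again higher and 1 lower, and 137 and 62 of all 14289 rows kept. The number of loci called changed with the library left out, and so did that of all rows. As such a fit leaves a single library in a group, its numbers of calls are not given. DESeq2 called 4 loci higher and 0 lower at its adjusted p, and 44 higher and 2 lower of all 20300 rows. At an unadjusted P below 0.05 it had 9 loci higher and 14 lower among those with 10 or more counts. The bias-adjusted quasi-likelihood fit, which let the spread differ more between genes, also called 4 loci higher and 0 lower. Of all 20300 rows it called 32 higher and 2 lower. At an unadjusted P below 0.05 it had 28 higher and 63 lower among the loci with 10 or more counts. For neither DESeq2 nor this fit were all rows counted at this P, so that these numbers are a description.

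The calls lay mostly in loci with many counts. From a mean of 1000 counts on, 6 of 47 loci were called, or 12.8%, and 4.08% of the Ensembl genes. At 300 to 1000 counts 6 of 129 loci were called, or 4.65%, and 1.76% of the genes. At 100 to 300 counts 0 of 264 loci were called by edgeR, at 30 to 100 counts 2 of 363 loci, or 0.551%, and at 10 to 30 counts 0 of 189. In these 3 bins 1.68%, 1.36% and 0.230% of the genes were called. DESeq2 and the bias-adjusted fit called 0 of the 47 loci with 1000 or more counts.

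**Figure D4:**
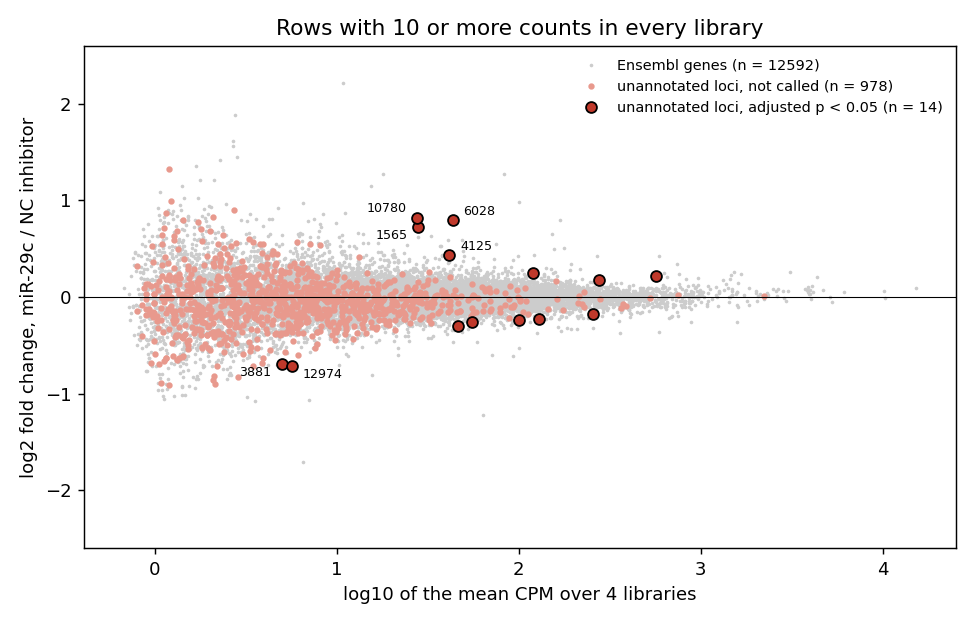
Each point is a row with at least 10 counts in every library, with the log10 of its mean CPM over the 4 libraries (x axis) and its log2 fold change between the groups (y axis). The 14 called loci (outlined) are set among the other loci (light red) and 12592 Ensembl genes (grey), and those with an absolute log2 fold change above 0.4 carry their number. Loci 6028, 10780 and 1565 stand above the other loci of similar abundance.

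Loci 6028, 10780 and 1565 were called in all 3 of edgeR's default fit, its bias-adjusted fit and DESeq2. Locus 15457 was called in all 3 as well, but it entered the fits through the inhibitor group alone. With 0 counts in the control group it had to differ, so that its calls lend it no support. When a library was removed, the single library left in its group was taken to vary as the pair in the other group did. A call lost in such a fit can also follow from the smaller number of libraries, as the adjustment over all rows changes too. From these fits the log2 fold changes are given. The log2 fold changes of loci 6028, 10780 and 1565 then stayed between 0.62 and 1.04. Locus 6028 had 423 and 553 counts in control 1 and 2, and 804 and 851 counts in inhibitor 1 and 2. Its level rose from 31.6 ± 3.55 CPM in the control group to 54.9 ± 0.971 CPM in the inhibitor group (SD, n = 2 each), and its log2 fold change was 0.80 ± 0.08 (SE, edgeR adjusted p = 7.55e-18). The adjusted p was 9.45e-08 from DESeq2 and 0.00228 from the bias-adjusted fit of edgeR. Both inhibitor libraries lay well above both control libraries, and the log2 fold change was between 0.70 and 0.91 with a library left out.

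Locus 10780 had 332 and 280 counts in the control libraries and 539 and 522 counts in the inhibitor libraries. Its level rose from 20.03 ± 3.93 CPM in the control group to 35.3 ± 2.84 CPM in the inhibitor group (SD, n = 2 each), and its log2 fold change was 0.82 ± 0.10 (SE, edgeR adjusted p = 3.12e-13). The adjusted p was 0.00026 from DESeq2 and 0.0266 from the bias-adjusted fit of edgeR. The groups did not overlap, and the log2 fold change moved between 0.62 without control 2 and 1.04 without control 1, which holds the higher level of its group.

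Locus 1565 had 304 and 348 counts in the control libraries and 485 and 573 counts in the inhibitor libraries. Its level rose from 21.2 ± 0.397 CPM in the control group to 35.0 ± 2.10 CPM in the inhibitor group (SD, n = 2 each), and its log2 fold change was 0.73 ± 0.10 (SE, edgeR adjusted p = 1.97e-10). The adjusted p was 0.00026 from DESeq2 and 0.00646 from the bias-adjusted fit of edgeR. Its replicates were close in both groups, and the log2 fold change was between 0.66 and 0.80 with a library left out. These 3 loci ranked 75th, 123rd and 121st by mean CPM among the unannotated loci.

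Locus 15457 had 0 counts in both control libraries and 24 and 21 counts in inhibitor 1 and 2. Against 3 counts over the control group, taken as what 0 counts allow, the 45 counts of the inhibitor group stood 15.3-fold higher. This value leaves out the counting error of the 45 counts and the spread between wells. The adjusted p was 9.59e-08 in edgeR's default fit, 0.0112 in DESeq2 and 0.0287 in edgeR's bias-adjusted fit. It was one of 9 loci with counts in both inhibitor libraries and in no control library, and the next of these had 7 counts in all. The reverse pattern was found in 13 loci, with at most 11 counts in all. Neither pattern was counted among the Ensembl genes, so that both numbers are a description. Detection in 2 of the 4 libraries, whichever these were, was found in 3.75% of the loci and 3.68% of the Ensembl genes. With 0 counts in a group, locus 15457 passed the filter of 1 count in total through the inhibitor group alone, so that it had to differ, and its adjusted p values are given as a description.

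A further 4 loci with at least 10 counts in every library were higher by edgeR's adjusted p and not by DESeq2 or the bias-adjusted fit. Locus 4125 had 502 and 589 counts in the control libraries and 574 and 872 counts in the inhibitor libraries, and its log2 fold change was 0.43 ± 0.08 (SE, edgeR adjusted p = 8.88e-05). Its increase rested mostly on inhibitor 2, and without this library the log2 fold change was 0.16. Locus 5950, the third most abundant, had 7101 and 9196 counts in the control libraries and 9035 and 9393 counts in the inhibitor libraries. It rose from 527 ± 55.8 to 612 ± 18.6 CPM (SD, n = 2 each), and its log2 fold change was 0.21 (edgeR adjusted p = 0.000184). Locus 14445 rose from 109 ± 15.5 to 130 ± 4.17 CPM (SD, n = 2 each), and locus 33 from 260.5 ± 29.7 to 295 ± 9.89 CPM (SD, n = 2 each). Their log2 fold changes were 0.25 and 0.18, with adjusted p values of 0.00305 and 0.0225 from edgeR.

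Loci 5950, 14445 and 33 were alike in the order of their control libraries. In each of them control 1 was the lowest library, and control 2 lay close to the inhibitor libraries. Locus 33, for example, had 239 CPM in control 1, 282 CPM in control 2, and 302 and 288 CPM in the inhibitor libraries. All of them lost their calls without control 1, locus 14445 also without inhibitor 2, and locus 33 also without either inhibitor library. The log2 fold changes of loci 5950, 14445 and 33 were 0.12, 0.13 and 0.08 without control 1, and 0.32, 0.40 and 0.30 without control 2. Locus 33 also lost its call in a fit of the loci and genes with 10 or more counts in every library alone (edgeR adjusted p = 0.0859).

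The remaining 3 higher loci had under 10 counts in some library. Locus 6566 had 14 and 7 counts in the control libraries and 30 and 37 counts in the inhibitor libraries, and its log2 fold change was 1.69 ± 0.40 (SE, edgeR adjusted p = 0.0033). It lost its call without control 2 and without inhibitor 2, with log2 fold changes of 1.20 and 1.59. Locus 14319 had 13 and 8 counts in the control libraries and 46 and 18 counts in the inhibitor libraries. Its log2 fold change was 1.63 (edgeR adjusted p = 0.00645). It lost its call without inhibitor 1, the library that carried most of its counts, and without control 2. The log2 fold change was then 0.75 and 1.25. Locus 4690 had 1 and 3 counts in the control libraries and 16 and 15 counts in the inhibitor libraries, for which edgeR gave an adjusted p of 0.0171. Its direction was the same with each library left out, but its call was lost each time. A call of this kind is also shaped by the filter, since a locus with almost no count in a group passes through the other group, and 0 loci of this kind were called lower by edgeR.

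All 7 lower loci had at least 10 counts in every library. None of them was called by DESeq2 or by the bias-adjusted fit, which gave adjusted p values of 0.804 or more and of 0.387 or more. Both of these fits called few rows lower, 2 of all 20300 each. In the fit of rows with 10 or more counts in every library alone, locus 166 kept its call (edgeR adjusted p = 0.0379) and the other 6 were at adjusted p values of 0.0586 to 0.184 from edgeR. The largest decreases were those of the least abundant. Locus 12974 had 121 and 93 counts in the control libraries and 73 and 55 counts in the inhibitor libraries, and its log2 fold change was -0.71 ± 0.19 (SE, edgeR adjusted p = 0.0182). Locus 3881 had 88 and 102 counts in the control libraries and 60 and 55 counts in the inhibitor libraries, and its log2 fold change was -0.69 ± 0.20 (SE, edgeR adjusted p = 0.0414). Groups did not overlap in either locus, and the replicates of locus 3881 differed by less than 1 standard error of counting. Its call was nevertheless lost without each of the 4 libraries in turn, while its log2 fold change stayed between -0.80 and -0.57.

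The other 5 lower loci were more abundant and changed less. Locus 508 had 692 and 896 counts in the control libraries and 565 and 696 counts in the inhibitor libraries, and its log2 fold change was -0.30 (edgeR adjusted p = 0.0187). Locus 4773 fell from 60.3 ± 11.5 to 50.2 ± 6.37 CPM (SD, n = 2 each), and its log2 fold change was -0.26 (edgeR adjusted p = 0.0411). It was the only called locus whose groups overlapped, as control 2, at 52.1 CPM, lay below inhibitor 1, at 54.7 CPM. Locus 166 fell from 109 ± 6.26 to 91.8 ± 6.86 CPM and locus 2795 from 140 ± 13.3 to 120 ± 7.36 CPM (SD, n = 2 each). Locus 16882 fell from 272 ± 5.17 to 241 ± 22.0 CPM (SD, n = 2 each), where inhibitor 2 was the lowest library at 226 CPM.

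The log2 fold changes of loci 166, 2795 and 16882 were -0.24, -0.22 and -0.17, with adjusted p values of 0.0119, 0.0137 and 0.0399 from edgeR. Loci 166, 2795, 12974, 4773 and 16882 lost their calls without inhibitor 2 and without control 1. Lower calls also became rarer over all rows in both of these fits, so that these losses are not particular to the loci. Without inhibitor 2 their log2 fold changes were -0.17, -0.16, -0.47, -0.14 and -0.08. Without control 1 they were -0.18, -0.12, -0.42, -0.05 and -0.185 in the same order. Locus 16882 lost its call without control 2 as well, with a log2 fold change of -0.16. Locus 508 behaved differently and lost its call without control 2 and without inhibitor 1, with log2 fold changes of -0.19 and -0.20.

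**Figure D5:**
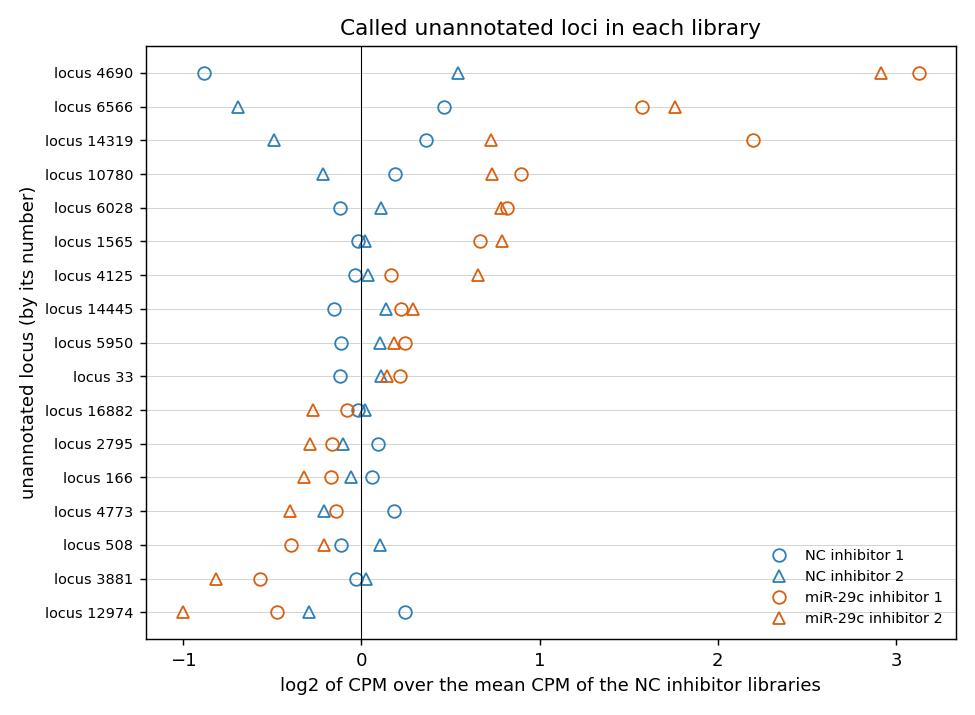
For 17 of the 18 called loci (y axis, by number, without locus 15457, which had 0 counts in the NC inhibitor libraries), the points give the log2 of the CPM in each library over the mean CPM of the NC inhibitor libraries (x axis). The miR-29c inhibitor libraries (orange) lie on the same side of both NC inhibitor libraries (blue) in every locus shown but 4773. The distance between the nearest libraries of the groups is small in loci 33, 5950, 14445, 2795 and 16882.

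At a stricter limit on size, an absolute log2 fold change over 1, and an unadjusted P below 0.05, edgeR found 18 loci higher and 10 lower among the 1497 tested, or 1.20% and 0.668%. Of all rows tested 0.429% were higher and 0.345% lower at these limits. These 28 loci had few counts, with a median of 41 and a range of 7 to 88 over the 4 libraries together, and 27 of them had under 10 counts in some library. The 129 Ensembl genes past the same limits had a median of 31 counts. With at least 10 counts in every library, 1 locus was higher and 0 lower at these limits, or 0.101% and 0%, against 0.125% and 0.0736% of all such rows. Of these loci, 35 higher and 85 lower were past an unadjusted P of 0.05 without the fold change limit. The 1 locus was 7135, with 10 and 11 counts in the control libraries and 18 and 34 counts in the inhibitor libraries. Its log2 fold change was 1.32 ± 0.43 (SE, edgeR adjusted p = 0.101), and it was 0.86 without inhibitor 2 and 1.67 without inhibitor 1. The number of loci past these limits changed with the library left out, and all rows were not counted in those fits.

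Over all 992 loci with at least 10 counts in every library, small decreases were more frequent than small increases. The median log2 fold change was -0.043, against -0.0015 for the 12592 Ensembl genes and -0.0041 for all 13584 rows, and 403 of the loci, or 40.6%, had a value above 0, against 49.5% of the genes. The median lay below 0 in each of the 5 bins of mean count, between -0.090 at 10 to 30 counts and -0.032 at 30 to 100 counts. For the Ensembl genes it lay between -0.017 at 10 to 30 counts and 0.0011 from 1000 counts on, and was below 0 in the other bins too. At an unadjusted P below 0.05 the 35 higher loci were 3.53% and the 85 lower loci 8.57% of the 992. Of all 13584 rows 5.96% were higher and 6.31% lower at this P. The CPM of the groups did not overlap in 139 loci that were higher, or 14%, and in 237 loci that were lower, or 23.9%, against 20% and 20.9% of all rows.

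The shift of -0.043 was somewhat larger than the distance between the libraries of a group. Across these loci the median log2 ratio of replicate 2 to replicate 1 was 0.028 in the control group and -0.017 in the inhibitor group. From a control library to an inhibitor library this median lay between -0.082 and -0.015. Against the mean of the 4 libraries, the median locus stood at 0.012 and 0.040 on the log2 scale in control 1 and 2, and at -0.0052 and -0.030 in inhibitor 1 and 2. For the Ensembl genes these medians lay between -0.0013 and 0.0036. The medians of the groups did not overlap for the loci, and the exact two-sided permutation p was 0.333, the smallest it can be. Control 2 was the highest library for 308 loci, or 31.0%, and inhibitor 2 the lowest for 323 loci, or 32.6%. The corresponding shares of the Ensembl genes were 25.4% and 28.4%. The median stayed below 0 in every fit, and lay between -0.056 and -0.035 with a library left out.

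Of the 8 most abundant loci, 1 was called, which was locus 5950. Locus 10783 was at 2227 ± 268 CPM in the control group and 2252 ± 87.8 CPM in the inhibitor group (SD, n = 2 libraries each), and its log2 fold change was 0.02 ± 0.03 (SE, edgeR adjusted p = 0.932). Locus 16606 was at 742 ± 114 and 752 ± 23.4 CPM (SD, n = 2 each), and its log2 fold change was 0.02 (edgeR adjusted p = 0.929). Without control 2 it was 0.18, and without control 1 it was -0.12. Locus 13150 was at 527 ± 1.39 and 525 ± 18.8 CPM (SD, n = 2 each), so that its group means differed by less than the spread of the inhibitor libraries. Locus 11556 was at 403 ± 15.9 and 377 ± 0.694 CPM (SD, n = 2 each) and did not overlap between groups, but its adjusted p was 0.502 from edgeR. Locus 7956 had a log2 fold change of -0.07, locus 272 of -0.12 and locus 4847 of -0.02, with adjusted p values of 0.799, 0.314 and 0.95 from edgeR. Locus 272 was at -0.21 without control 2 and at -0.012 without control 1.

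The loci whose replicates differed most beyond counting error were also among the most abundant. These were loci 10783, 16606 and 5950, in which the log2 ratio of both control libraries was 22.2, 16.4 and 9.49 times its counting error. In all 3 of them control 1 was the lower library. Locus 10783, for example, was at 2037 CPM in control 1 and 2417 CPM in control 2, with the inhibitor libraries at 2314 and 2190 CPM. Of the 28 loci above 100 CPM, 14 were highest in control 2, 6 in control 1, 5 in inhibitor 1 and 3 in inhibitor 2. The lowest library was control 1 for 10 of them, inhibitor 1 for 9, inhibitor 2 for 9 and control 2 for 0. Ensembl genes above 100 CPM were not counted in this way, so that these numbers are a description.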

How the data were processed

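The members and lists were chosen with earlier results of these data known. The 4 libraries were grouped by their labels. Per the paper, the authors cleaned the reads, mapped them by HISAT2 to a bovine genome it names as UMD3.1 (the release of the identifiers was not checked here) and counted them by featureCounts. The deposited values are whole-number counts per gene or locus, not normalized. The assembly of the unannotated loci and the use of strand were not stated.

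edgeR 4.0.16 (R 4.3.3, limma 3.58.1) was run with TMM factors, a group term and its default quasi-likelihood test on the 20300 genes and loci with a count, with Benjamini-Hochberg adjustment over all of them and calls below 0.05. The standard error is the absolute log2 fold change over the root of F. The default fit gave all rows the trended spread, and the bias-adjusted fit had a prior of 9.12 degrees of freedom. DESeq2 1.42.0 gave no adjusted p to 158 loci, which stayed missing. The fits were tried on simulated data with the same spread in every row, so that this does not test the calls of loci reported here.

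Totals were 14479278 to 16213226 counts per library, and intervals and the limit of 3 counts cover counting error only. Loci named are those called, the locus past the fold change limit alone among those with 10 or more counts in every library, the 8 most abundant, and the 3 with the largest difference between replicates beyond counting error. Alternatives were other scalings, filters and tests, each library left out and a replicate block. Replicates of the same number did not deviate together (correlation 0.0498 over the 13584 rows with 10 or more counts in every library).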

Additional observations from a re-analysis of the deposited data

How the results depend on the processing

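Over the alternatives, loci called higher and lower among all loci tested were 4 and 0 by DESeq2 as by the bias-adjusted fit, 9 and 1 with edgeR's filterByExpr and 6 and 1 with at least 10 counts in every library, against 11 and 7. In the same order, all rows called were 44 and 2, 32 and 2, 137 and 62, and 131 and 63, against 183 and 114. Among loci with 10 or more counts the calls were 3 and 0, 3 and 0, 6 and 1, and 6 and 1, against 7 and 7. The cause of the lost calls was not tested. The numbers called also changed with a library left out, for the loci as for all rows. Past the fold change limit, 1 and 0 loci with 10 or more counts were found with all libraries, and 0 and 0 by DESeq2. These numbers changed with a library left out as well, and all rows were not counted there. Other scalings and TMM factors from Ensembl genes alone kept the counts of calls within 1.5 times. A replicate block gave 12 higher and 10 lower loci, with all 18 calls among them, and 216 and 136 of all rows. The replicate numbers did not pair the libraries, however.

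Without locus 10783 the share of counts was 1.725% and 1.772% in the control libraries and 1.707% and 1.697% in the inhibitor libraries. Over loci with 10 or more counts it was 1.907% and 1.989%, and 1.913% and 1.892%. The squared correlation of replicates was 0.952 and 0.953 with a pseudocount of 0.1, 0.959 and 0.958 by ranks, and 0.977 and 0.976 over loci with 10 or more counts (control and inhibitor group). The SD of the log2 ratio was 0.247 and 0.254 over loci with a mean of 50 or more counts. With a library left out, the log2 fold change ranged from -0.095 to 0.139 for locus 10783, from -0.122 to 0.181 for locus 16606, from -0.031 to 0.028 for locus 13150 and from -0.055 to 0.029 for locus 4847, and it changed sign in each. Lengths and positions were not analysed here, and 2 libraries a group limit every test.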
